A study of Mus musculus with 7 samples.

Results

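The chemokine ligand genes of mouse skin were examined in an RNA-seq table of 22552 gene symbols. The set took every symbol made of Ccl or Cxcl and a number, with a letter suffix allowed, and added Cx3cl1, Xcl1, Ppbp and Pf4. It holds 41 genes, of which 24 are Ccl genes, 13 are Cxcl genes and 4 are the added genes. Each library was total RNA of cells sorted by flow cytometry from the skin of CD1/C3H mice at postnatal day 50. Koa (Koala) is a dominant mouse mutation known for hairy ears. Wt/Koa mice gave ear epidermis and ear dermis (Koa), and Wt/Wt mice gave ear epidermis, dorsal epidermis, ear dermis, dorsal dermis and tail dermis (WT). The layer of the tail library is known from its title alone, and neither the surface markers of the sort nor the number of animals per library is given in the sources used here. Each of the 7 groups had 1 library, so differences could be checked against no replicate and none was tested.

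Chemokines are small secreted proteins that direct the movement of leukocytes. They bind receptors of the same family naming (CCR, CXCR, CX3CR1 and XCR1), and many ligands share a receptor. Some, such as Cxcl12 and Cxcl14 in skin, are made at rest, while others, such as Cxcl1, Ccl2 and Cxcl10, are switched on by inflammatory cytokines. NF-kB is a transcription factor family that inflammatory signals and cell stress activate, and several inducible chemokines are textbook targets of it.

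The promoters of 5 inducible ligands are shown because each holds a match to the NF-kB consensus, and that of Ccl27a because it was the ligand furthest apart between the 2 WT epidermal libraries. Each run is the 150 bases before the annotated start of transcription, 5′ to 3′ on the gene's strand, from RefSeq on GRCm38.p6. Capitals mark matches on either strand, joined where they overlap: the NF-kB consensus in the first 5 and the AP-1 site TGANTCA in Ccl27a, of whose 3 annotated starts only the one with a match within 150 bases is shown.
Cxcl1, chr5:90891095-90891244, plus strand: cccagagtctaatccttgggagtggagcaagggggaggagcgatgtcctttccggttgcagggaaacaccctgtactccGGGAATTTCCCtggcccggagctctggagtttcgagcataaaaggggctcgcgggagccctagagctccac
Cxcl2, chr5:90903749-90903898, plus strand: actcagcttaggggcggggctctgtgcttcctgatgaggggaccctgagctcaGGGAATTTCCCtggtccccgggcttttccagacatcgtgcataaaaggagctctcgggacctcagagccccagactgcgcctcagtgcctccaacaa
Cxcl3, chr5:90785951-90786100, plus strand: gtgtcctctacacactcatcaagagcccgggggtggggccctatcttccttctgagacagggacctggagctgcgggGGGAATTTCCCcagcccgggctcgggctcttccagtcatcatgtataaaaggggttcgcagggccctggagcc
Ccl20, chr1:83116616-83116765, plus strand: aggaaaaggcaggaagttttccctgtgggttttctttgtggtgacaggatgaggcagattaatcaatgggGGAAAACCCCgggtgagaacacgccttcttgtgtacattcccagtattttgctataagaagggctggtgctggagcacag
Cxcl10, chr5:92348890-92349039, minus strand: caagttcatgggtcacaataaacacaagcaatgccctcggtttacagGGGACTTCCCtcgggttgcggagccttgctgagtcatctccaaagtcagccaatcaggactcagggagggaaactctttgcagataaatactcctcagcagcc
Ccl27a, chr4:41770213-41770362, minus strand: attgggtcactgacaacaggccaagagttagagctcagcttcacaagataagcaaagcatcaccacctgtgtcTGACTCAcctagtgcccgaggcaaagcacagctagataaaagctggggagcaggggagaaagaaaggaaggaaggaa

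The marked letters of Cxcl1, Cxcl2 and Cxcl3 are the same. Promoters were found for 29 of the 41 genes. In the 250 bases before the start, the NF-kB consensus was matched in 6 of those 29 genes (Cxcl1, Cxcl2, Cxcl3, Ccl9, Ccl20 and Cxcl10) and in 3.90% of all 32851 promoters. TGANTCA was matched in 5 (Ccl9, Ccl27a, Ccl27b, Cxcl10 and Ppbp) against 6.75% of all promoters. The interferon-stimulated element GAAANNGAAA was matched in 3 (Ccl19, Cxcl10 and Cxcl14) against 2.98%. A ligand gene was counted if any of its promoters matched, while the shares of all promoters count each promoter singly, so the units differ. Matches were sought on both strands and describe letters, not binding.

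Levels are in FPKM, the number of fragments divided by transcript length in kilobases and by the mapped fragments of the library. Depths recovered from steps in the low values were 31.6 to 40.4 M fragments (M for 10 to the power of 6) in 6 libraries and about 20.3 M in tail dermis, and 11600 to 13592 genes reached 1 FPKM. Summed basal keratinocyte markers stood at 15220 to 20072 FPKM in epidermis and 131 to 6387 FPKM in dermis. Summed fibroblast markers stood at 29.9 to 52.6 FPKM in epidermis and 5828 to 10376 FPKM in dermis. Dorsal dermis carried both sets, with basal keratinocyte markers at 6387 FPKM beside fibroblast markers at 5828 FPKM. Its keratinocyte markers stood at a median of 37.7% of their dorsal epidermal level, against 7.16% for the same layers of WT ear. The tail values have 2 decimals, a 0 stands there for 193 genes that reach 10 FPKM in each of the other 6 libraries, and Xist stood at 41.5 FPKM in tail against at most 0.122 FPKM elsewhere. No chemokine ligand is among those 193 genes. Only Cxcl14 of the ligands reached 10 FPKM in each of the other 6 libraries, so this cannot show whether a ligand's 0 in tail is a failed estimate.

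Of the 41 ligands, 32 reached 1 FPKM in at least 1 library and 24 reached 10 FPKM. Another 6 (Ccl26, Ccl28, Cxcl3, Cxcl15, Cxcl17 and Ppbp) were above 0 but under 1 FPKM everywhere, and 3 (Ccl21b, Ccl21c and Ccl27b) were listed at 0 in every library. The summed ligand level was 204 FPKM in Koa ear epidermis, 82.8 in WT ear epidermis and 1282 in dorsal epidermis. In dermis it was 1043 in Koa ear, 966 in WT ear, 2134 in back and 4422 FPKM in tail. Cxcl14 led the sum in all 3 epidermal libraries, with 61.4% in Koa ear, 42.5% in WT ear and 42.3% in back, and in tail dermis, with 45.3%. Ccl8 led in Koa ear dermis (29.4%) and dorsal dermis (33.4%), and Pf4 led in WT ear dermis (20.3%). Among the 32 ligands that reached 1 FPKM, dorsal dermis was the library with the highest level for 11, tail dermis for 10 and dorsal epidermis for 5. The same count was not made over all genes, and dorsal dermis also had the most genes at 1 FPKM (13592).

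**Figure D1:**
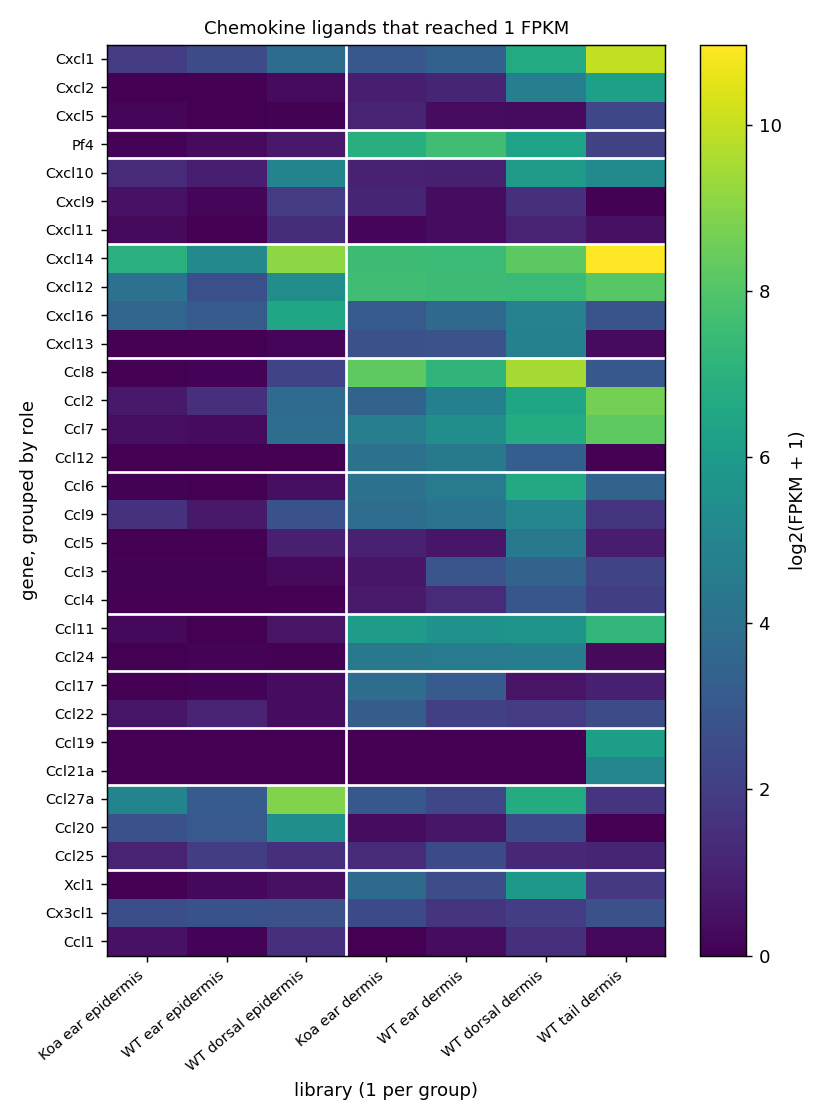
Level of the 32 ligands that reached 1 FPKM, as log2(FPKM + 1) by color, with genes in rows grouped by role (white lines) and the 7 libraries in columns, epidermis to the left of the vertical line. Cxcl14 is bright in every column, from 35.2 FPKM in WT ear epidermis to 2005 FPKM in tail dermis, while most Ccl genes are dark in the epidermal columns.

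**Figure D2:**
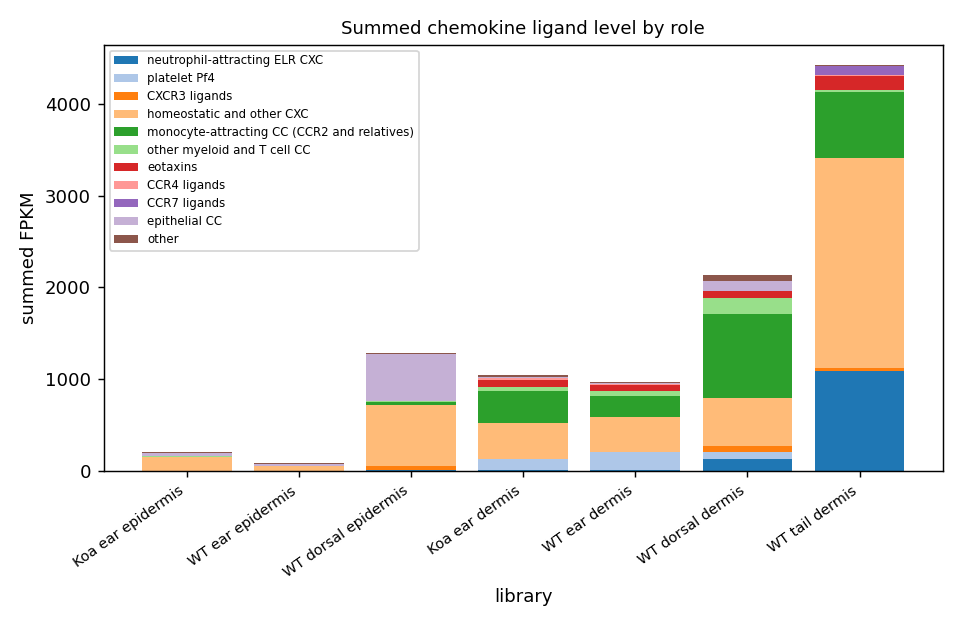
Summed FPKM of the 41 ligands in each library (bars from 0), divided by role (colors). The bar of tail dermis reaches 4422 FPKM and that of WT ear epidermis 82.8 FPKM.

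Below, values run in a fixed order: epidermis of Koa ear, WT ear and back, then dermis of Koa ear, WT ear, back and tail. Among the ligands of resting skin, Cxcl14, which keratinocytes and fibroblasts make in healthy skin, stood at 125, 35.2 and 542 FPKM in epidermis and at 183, 178, 292 and 2005 FPKM in dermis. Back was the highest epidermal library and WT ear the lowest, while the ear dermal libraries lay close together. Cxcl12, the ligand of Cxcr4 that fibroblasts make, stood at 16.3, 5.47 and 42.3 FPKM in epidermis and at 191, 181, 176 and 275 FPKM in dermis. All 4 dermal libraries were above all 3 epidermal libraries. Cxcl16, a membrane-bound ligand of Cxcr6, stood at 10.9, 7.63 and 86.5 FPKM in epidermis and at 7.70, 12.3, 27.8 and 6.12 FPKM in dermis, with dorsal epidermis highest. It overlaps Zmynd15 on the opposite strand, with 19.0% of runs of 50 bases in common, and Zmynd15 was also highest in dorsal epidermis, at 14.1 FPKM against 1.70 FPKM in WT ear epidermis. Cxcl13, which attracts B cells, stood at 0, 0 and 0.132 FPKM in epidermis and at 5.57, 6.08, 27.4 and 0.26 FPKM in dermis. Cx3cl1, the membrane-bound ligand of Cx3cr1, ranged from 2.25 FPKM in WT ear dermis to 5.71 FPKM in WT ear epidermis.

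Of the 5 ligands grouped as epithelial, Ccl27a and Ccl20 were highest in the epidermis of the back, Ccl25 was highest in WT ear dermis, and Ccl27b and Ccl28 were at or under 0.01 FPKM. Ccl27a, a keratinocyte product that attracts Ccr10-bearing skin T cells, stood at 29.6, 7.84 and 469 FPKM in epidermis and at 6.85, 4.10, 108 and 2.15 FPKM in dermis. Ccl20, the ligand of Ccr6, stood at 5.82, 7.41 and 42.6 FPKM in epidermis and at 0.283, 0.600, 4.45 and 0 FPKM in dermis. In dermis, too, both were highest in back. Ccl25, known for its role in gut and thymus, stood at 1.13, 2.95 and 1.83 FPKM in epidermis and at 1.49, 4.51, 1.38 and 1.19 FPKM in dermis, with both WT ear libraries highest in their layer. Of the Ccl27a transcript, 69.2% of runs of 50 bases also lie in transcripts of other genes, and its locus overlaps Il11ra1 on the opposite strand. Whether counting used strand is not given in the sources used here, so its level is uncertain in size. Il11ra1 stood at 18.9, 12.3 and 28.8 FPKM in epidermis and at 84.7, 85.5, 46.8 and 75.3 FPKM in dermis. In epidermis its order was that of Ccl27a, with back highest and WT ear lowest, while in dermis the orders differed. The part of Il11ra1 in the Ccl27a level was not tested.

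The neutrophil-attracting ligands, which act on Cxcr2, were led by Cxcl1. It stood at 2.88, 4.82 and 13.9 FPKM in epidermis and at 6.83, 9.62, 104 and 1009 FPKM in dermis. Cxcl2 stood at 0, 0 and 0.251 FPKM in epidermis and at 0.895, 1.22, 25.6 and 72.4 FPKM in dermis. Tail dermis was highest and back next for both. Cxcl5 stayed at or under 1.10 FPKM outside tail, where it stood at 4.02 FPKM. All of these lie in 1 cluster with Pf4, Ppbp, Cxcl3 and Cxcl15, from the start of Cxcl5 at 90759298 to the end of Cxcl2 at 90905938 on chromosome 5 of GRCm38 (RefSeq). Pf4, stored in platelet granules, stood at 0.0735, 0.258 and 0.658 FPKM in epidermis and at 119, 196, 81.9 and 3.37 FPKM in dermis. Its dermal order, with WT ear highest and tail lowest, was not that of Cxcl1 and Cxcl2. Ppbp, next to it and also a platelet granule protein, had the same dermal order at a much lower level, with 0.449, 0.753, 0.247 and 0 FPKM. Of 6 platelet markers, Gp9, Gp6 and Treml1 were at or under 0.297 FPKM in every library. Itga2b stood at 3.90, 4.51, 2.34 and 6.88 FPKM in dermis, Gp1ba between 0.65 and 2.49 FPKM and Gp1bb between 0.906 and 2.80 FPKM over all libraries. The summed macrophage markers stood at 1049, 1398, 1204 and 67.1 FPKM in the same 4 dermal libraries.

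The Cxcr3 ligands attract activated T cells and are textbook interferon targets. Cxcl10 stood at 1.54, 0.893 and 30.3 FPKM in epidermis and at 0.982, 0.927, 59.1 and 35.6 FPKM in dermis. Both dorsal libraries and tail were above 30 FPKM, and all 4 ear libraries were under 2 FPKM. Cxcl9 reached 2.76 FPKM and Cxcl11 reached 1.74 FPKM, both in dorsal epidermis. The 3 genes lie together on chromosome 5, from 92321331 to 92363296 on GRCm38, and Cxcl10 and Cxcl11 overlap Art3 on the opposite strand.

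Among the monocyte-attracting ligands, Ccl2, the main ligand of Ccr2, stood at 0.703, 1.89 and 13.2 FPKM in epidermis and at 10.4, 25.6, 87.9 and 411 FPKM in dermis. Ccl7, which shares that receptor, stood at 0.332, 0.25 and 14.8 FPKM in epidermis and at 24.6, 41.4, 106 and 302 FPKM in dermis. Both had the same order of the 4 dermal libraries, with Koa ear lowest and tail highest. Ccl8 stood at 0, 0.0806 and 3.60 FPKM in epidermis and at 307, 144, 713 and 7 FPKM in dermis, with tail lowest. Ccl12, another ligand of Ccr2, was listed at 0 in all 3 epidermal libraries and in tail and stood at 16.2, 20.6 and 8.84 FPKM in Koa ear, WT ear and dorsal dermis. These 4 genes and Ccl11 and Ccl1 lie between 82035577 and 82179812 on chromosome 11 of GRCm38, and the order of the dermal libraries differed among these neighbors.

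A further group of CC ligands acts on myeloid cells and T cells. Ccl6 stood at 0.0458, 0 and 0.333 FPKM in epidermis and at 16.7, 22.4, 96.7 and 10.4 FPKM in dermis. Ccl9 stood at 1.97, 0.706 and 5.72 FPKM in epidermis and at 14.2, 17.3, 33.1 and 2.22 FPKM in dermis. Back was highest and tail lowest in the dermis for both. Ccl3 stood at 0.0482, 0.0422 and 0.216 FPKM in epidermis and at 0.576, 6.42, 10.2 and 3.81 FPKM in dermis. Ccl5, a product of activated T cells, stood at 0, 0 and 0.966 FPKM in epidermis and at 1.03, 0.588, 20.5 and 0.76 FPKM in dermis, with back far above the others. Ccl4, next to Ccl3, reached 6.71 FPKM in dorsal dermis.

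The eotaxins attract eosinophils through Ccr3. Ccl11 stood at 0.162, 0 and 0.509 FPKM in epidermis and at 64.3, 48.4, 50.9 and 148 FPKM in dermis. Ccl24 stood at 0, 0.0912 and 0.0582 FPKM in epidermis and at 20.2, 22.5, 24.4 and 0.23 FPKM in dermis. The ear and dorsal dermal libraries lay close together for each, and tail was highest for Ccl11 and lowest for Ccl24. The Ccr4 ligand Ccl17 stood at 0, 0.0798 and 0.306 FPKM in epidermis and at 14.1, 7.98, 0.498 and 0.97 FPKM in dermis. Its neighbor and fellow Ccr4 ligand Ccl22, a dendritic cell product, stood at 0.544, 1.09 and 0.275 FPKM in epidermis and at 8.48, 3.18, 2.90 and 4.8 FPKM in dermis. Koa ear dermis was highest for both. Xcl1, which T cells and natural killer cells make for Xcr1-bearing dendritic cells, stood at 0, 0.166 and 0.424 FPKM in epidermis and at 12.7, 4.98, 56.6 and 2.52 FPKM in dermis. Ccl1, a ligand of Ccr8, was highest in dorsal dermis (1.85 FPKM) and dorsal epidermis (1.78 FPKM). The Ccr7 ligands Ccl19 and Ccl21a, which guide dendritic cells and T cells to lymph nodes, were listed at 0 in 6 libraries and at 70.4 and 33.0 FPKM in tail. Their transcripts share 59.1% and 71.6% of runs of 50 bases with other genes, and a 0 in this table can be a failed estimate, since Col1a2 is listed at 0 in all 4 dermal libraries. No fold was therefore taken. The levels of Ccl2, Ccl6, Ccl25 and Xcl1, each overlapped by a gene on the other strand, and of Ccl3 and Ccl4, which overlap each other in RefSeq, carry the same uncertainty as that of Ccl27a.

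To compare 2 libraries, log2(FPKM + 1) values were subtracted for each gene that reached 1 FPKM in either. Genes could thus be kept through only the library where they were high, ligands and others alike. A gene was counted as higher or lower when the difference was at least 1 in size, near 2-fold for a well expressed gene. Ratios of FPKM are given with 95% intervals that cover counting error only and are approximate. In these bulk samples, fewer cells of a type and less RNA per cell cannot be told apart.

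Most ligands were higher in dermis than in epidermis. In WT ear, 17 of 24 ligands were higher in dermis and 2 lower, where 21.1% and 14.1% of all genes were. In back the counts were 18 and 3 of 28, against 16.1% and 7.89% of all genes. In Koa ear they were 16 and 2 of 25, against 20.4% and 12.2%. The median differences of the ligands were 2.83, 2.70 and 2.62, and those of all genes -0.09, -0.14 and -0.11. Of the higher ligands in WT ear, all but Ccl2, Cxcl12 and Cxcl14 were under 1 FPKM in epidermis and were kept through dermis alone. The same held in back for all but Ccl2, Ccl7, Ccl8, Ccl9, Cxcl1 and Cxcl12, and in Koa ear for all but Ccl9, Cxcl1 and Cxcl12. Ccl20, a lower ligand, was kept through epidermis alone in both ears. The counts and medians rest in large part on these. These 3 comparisons share no library, and 12 ligands were higher in dermis in all 3: Ccl2, Ccl6, Ccl7, Ccl8, Ccl9, Ccl11, Ccl12, Ccl24, Cxcl12, Cxcl13, Pf4 and Xcl1. Of these, only Cxcl12 reached 1 FPKM in all 3 epidermal libraries. Counts over all 3 comparisons were not made for all genes, so whether 12 is many cannot be told. Ccl20 was the 1 ligand lower in dermis in all 3, and its dermal level was 8.10% of the epidermal level in WT ear, 10.4% in back and 4.87% in Koa ear. For basal keratinocyte markers the median of that percentage was 7.16%, 37.7% and 10.7%. Ccl27a in dermis stood at 52.3% of its epidermal level in WT ear, 22.9% in back and 23.2% in Koa ear. Macrophage markers were higher in dermis in 9 of 9 in each comparison. They summed to 1398 against 4.27 FPKM in WT ear, 1204 against 10.6 FPKM in back and 1049 against 5.05 FPKM in Koa ear. Langerhans and dendritic cell markers were higher in 6 of 6 in both ears and 5 of 6 in back. Kept neutrophil markers were higher in 4 of 4 in WT ear and back and 0 of 3 in Koa ear. The part of epidermal cells in the dermal levels, and of leukocytes in the layer differences, was not tested. With median ratio scaling the share of higher genes among all called genes went from 60.0% to 70.5% in WT ear and from 67.1% to 85.5% in back, while in Koa ear it moved by less than 10 points. Ligand counts became 19 higher and 1 lower in WT ear, where Cx3cl1 was no longer lower, against 24.7% and 10.3% of all genes. They became 19 and 3 in back, against 19.3% and 3.28%, and 18 and 2 in Koa ear, against 23.6% and 9.15%. That scaling removed a shift over all genes of -0.26 in WT ear, -0.33 in back and -0.26 in Koa ear on the log2 scale.

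Between Koa and WT ear dermis, 3 of 26 ligands were higher (Ccl8, Ccl22 and Xcl1) and 3 were lower (Ccl2, Ccl3 and Ccl25), where 1.36% of all genes were higher and 0.578% lower. Ccl8 in Koa stood at 2.13 times its WT level (interval 2.01 to 2.27), Ccl22 at 2.67 times (2.29 to 3.12) and Xcl1 at 2.56 times (1.87 to 3.55). Ccl3 stood at 0.0896 times its WT level (0.0436 to 0.166), Ccl2 at 0.407 times (0.347 to 0.476) and Ccl25 at 0.331 times (0.231 to 0.467). The median over the 26 ligands was -0.13 and that of all genes -0.00. Pf4, Cxcl14 and Cxcl12 were not past the size rule. Beside these values, T cell markers were higher in 2 of 5 (Cd3g and Cd2), and the 4 markers other than Thy1, which fibroblasts also express, summed to 92.3 FPKM in Koa and 38.1 FPKM in WT. Thy1 stood at 205.3 and 191 FPKM. Macrophage markers were lower in 1 of 9 (Cd68), at 1049 against 1398 FPKM. Mast cell markers were lower in 4 of 6, at 154 against 419.5 FPKM, and basal keratinocyte markers were higher in 4 of 8, at 1930.1 against 775 FPKM. No defining marker of these lists was at 0 in either library, and their part in the result was not tested. With a pseudocount of 5, 2 ligands were past the rule, Ccl8 and Ccl3.

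Between Koa and WT ear epidermis, 3 of 12 ligands were higher (Cxcl14, Ccl27a and Cxcl12) and 0 were lower, against 1.59% and 0.531% of all genes. Cxcl14 in Koa stood at 3.55 times its WT level (3.38 to 3.72), Ccl27a at 3.77 times (3.22 to 4.44) and Cxcl12 at 2.98 times (2.79 to 3.19). All 3 were higher still in dorsal epidermis. Summed fibroblast markers were 33.6 FPKM in Koa and 29.9 FPKM in WT, with 0 of 3 kept markers past the rule. Of the 10 ligands kept in both layers, 0 were higher in Koa in both, of 1 higher in dermis and 3 in epidermis. Over all genes, 42 were shared, which is 34.1% of those higher in dermis and 26.8% of those higher in epidermis. With a pseudocount of 0.1, 6 ligands were past the rule, 4 of them higher.

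**Figure D3:**
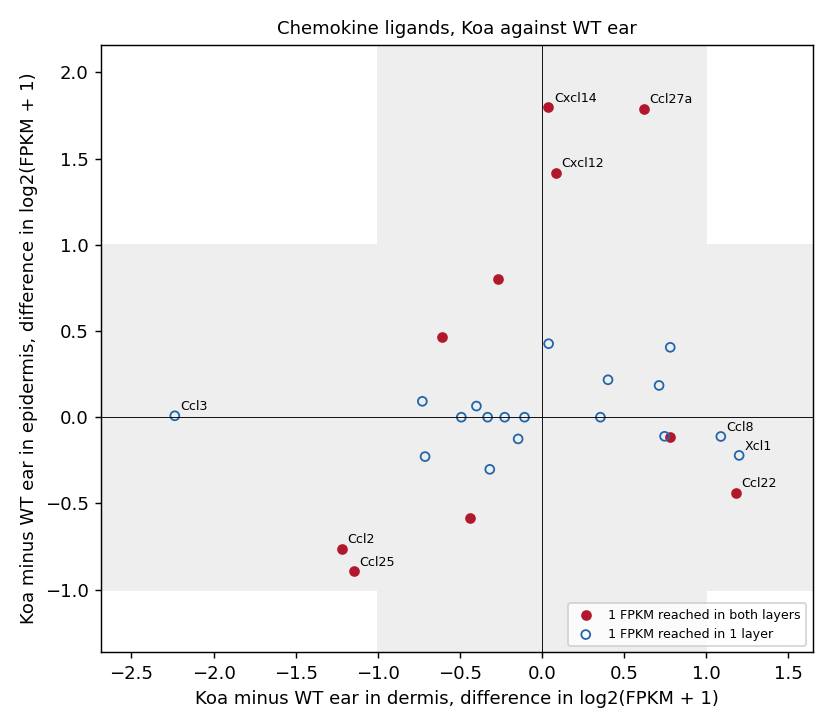
Difference between Koa and WT ear on the log2(FPKM + 1) scale in dermis (horizontal) and epidermis (vertical), 1 point per ligand, filled where 1 FPKM was reached in both layers. Shading covers differences under 1 on an axis. Ccl3 lies furthest left and Cxcl14, Ccl27a and Cxcl12 lie at the top, with no labelled point past the rule on both axes.

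Between dorsal and ear dermis of WT, 16 of 29 ligands were higher and 4 were lower, where 11.3% of all genes were higher and 6.74% lower. Of the higher ligands, Ccl1, Ccl5, Ccl20, Cxcl9 and Cxcl10 were under 1 FPKM in ear and were kept through back alone. Ccl17, a lower ligand, was kept through ear alone. The median difference was 1.12 for the ligands and -0.05 for all genes. Cxcl10 in back stood at 63.7 times its ear level (44.5 to 94.8), Ccl5 at 34.9 times (16.6 to 87.7) and Ccl27a at 26.2 times (21.3 to 32.6). Cxcl2 stood at 21.0 times (15.3 to 29.7), Xcl1 at 11.4 times (8.63 to 15.2) and Cxcl1 at 10.8 times (9.47 to 12.3). Higher ligands came from several roles: Ccl8 stood at 4.96 times its ear level, Ccl6 at 4.32 times and Ccl2 at 3.44 times. The 4 lower ligands were Ccl17 at 0.0625 times (0.0198 to 0.151), Pf4 at 0.417 times, Ccl12 at 0.429 times and Ccl25 at 0.307 times. Ccl11, Ccl24, Cxcl12 and Cxcl14 were not past the rule. With a pseudocount of 5, 13 ligands were past it.

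In epidermis, 14 of 17 ligands were higher in back than in ear and 0 were lower, against 11.0% and 5.10% of all genes. Of the higher ligands, Ccl1, Ccl7, Ccl8, Ccl9, Cxcl9, Cxcl10 and Cxcl11 were under 1 FPKM in ear and were kept through back alone. The count and the median rest in part on these. The median difference was 2.09 for the ligands and -0.02 for all genes. Ccl27a stood at 59.8 times its ear level (52.0 to 69.1), Cxcl10 at 33.9 times (23.9 to 50.0), Cxcl14 at 15.4 times (14.8 to 16.1) and Cxcl16 at 11.3 times. Cxcl12 stood at 7.73 times, Ccl20 at 5.76 times and Cxcl1 at 2.88 times. With a pseudocount of 5, 8 ligands were past the rule. The dermal and epidermal comparisons share no library. Among 17 ligands kept in both, 10 were higher in back in both, which is 100% of the 10 higher in dermis and 71.4% of the 14 higher in epidermis. Of these 10, Ccl1, Ccl7, Ccl8, Cxcl9 and Cxcl10 were kept in epidermis through back alone. Since 14 of the 17 were higher in epidermis, most of those higher in dermis had to be shared. Of all 16 ligands higher in dermis, Ccl4, Ccl5, Ccl6, Cxcl2, Cxcl13 and Xcl1 were under 1 FPKM in both epidermal libraries. They are not among the 17. For all genes the shared 743 were 56.5% of those higher in dermis and 56.3% of those higher in epidermis. Only 1320 of those 11988 genes were higher in epidermis, so the shares of ligands and of all genes cannot be compared directly.

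**Figure D4:**
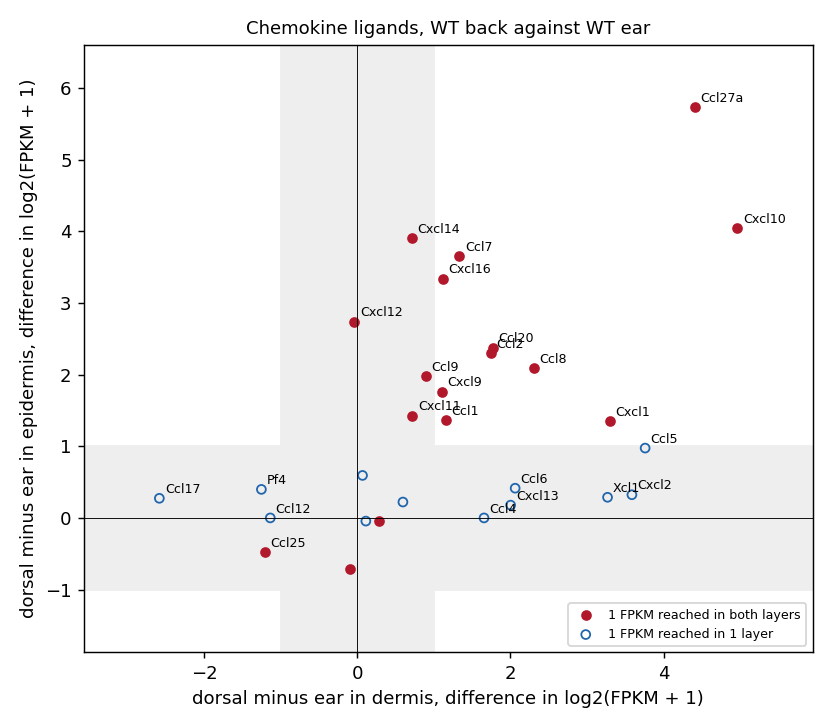
Difference between back and ear of WT mice on the log2(FPKM + 1) scale in dermis (horizontal) and epidermis (vertical), 1 point per ligand, filled where 1 FPKM was reached in both layers. Shading covers differences under 1 on an axis. The 10 ligands higher in both layers lie at the upper right, with Ccl27a and Cxcl10 furthest out.

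Genes of other lists moved with the dorsal libraries. All 12 genes of a list known to respond to tissue dissociation, such as Fos and Atf3, were higher in back in both layers, with summed levels of 5827 against 551 FPKM in dermis and 11457 against 985 FPKM in epidermis. NF-kB feedback genes, such as Nfkbia and Tnfaip3, were higher in 7 of 10 in dermis (699.9 against 161 FPKM) and in 7 of 10 in epidermis (910.3 against 146 FPKM). Between Koa and WT ear, 0 of these 12 and 0 of these 10 genes were past the rule in either layer. T cell markers were higher in dorsal dermis in 4 of 5, which summed to 189 against 38.1 FPKM, while Thy1, the other, stood at 118 against 191 FPKM. Basal keratinocyte markers were higher in 8 of 8, at 6387 against 775 FPKM. Macrophage markers were higher in 1 of 9 and lower in 2 of 9, at 1204 against 1398 FPKM, and mast cell markers were lower in 5 of 6, at 85.2 against 419.5 FPKM. In dorsal against ear epidermis, fibroblast markers were higher in 3 of 5 (Dpt, Fbln1 and Lum), at 52.6 against 29.9 FPKM, beside Cxcl12 at 7.73 times. The part of dissociation and of these cell types in the ligand levels was not tested.

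Between tail and ear dermis of WT, 11 of 27 ligands were higher and 9 were lower, where 6.13% of all genes were higher and 26.5% lower. Higher were Cxcl1 by 6.57, Ccl19, Ccl21a, Cxcl2 by 5.05, Cxcl10 by 4.25, Ccl2 by 3.95, Cxcl14 by 3.49, Ccl7 by 2.84, Cxcl5 by 1.97, Ccl11 by 1.59 and Cx3cl1 by 1.00 on the log2(FPKM + 1) scale. Lower were Pf4, Ccl12, Ccl24, Ccl8, Cxcl13, Ccl9, Ccl17, Ccl25 and Ccl6, of which Pf4 (-5.50), Ccl24 (-4.25) and Ccl8 (-4.18) were furthest apart among those not listed at 0. The median was 0.47 for the ligands and -0.50 for all genes. Cxcl5 and Cxcl10 were under 1 FPKM in ear and were kept through tail alone. Ccl17, Ccl24 and Cxcl13 were under 1 FPKM in tail and were kept through ear alone. Ccl19 and Ccl21a, listed at 0 in ear, and Ccl12, listed at 0 in tail, are in these counts and in the median. Since a 0 can be a failed estimate, their direction is uncertain. Scaling by median ratios removed a shift of all genes of -0.34 on the log2 scale, raised the higher share of called genes from 18.8% to 34.5%, and gave 12 higher and 8 lower ligands, with Ccl6 no longer lower, against 9.34% and 17.8% of all genes. Macrophage markers were lower in tail in 8 of 9, at 67.1 against 1398 FPKM. Also lower were 6 of 8 basal keratinocyte markers (131 against 775 FPKM), 4 of 5 T cell markers (14.2 against 38.1 FPKM, with Thy1 higher), 3 of 4 kept neutrophil markers (9.94 against 44.8 FPKM) and 3 of 6 Langerhans and dendritic cell markers (324 against 1867 FPKM). All 12 dissociation genes were higher in tail (10661 against 551 FPKM), as were 8 of 10 NF-kB feedback genes (2188 against 161 FPKM) and 3 of 6 blood endothelial markers (66.7 against 25.9 FPKM). Ddx3y, a Y-linked gene, is listed at 0 in tail and stood at 33.1 FPKM or more in each other library. Position, sex and the way the tail column was made cannot be told apart here.

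**Figure D5:**
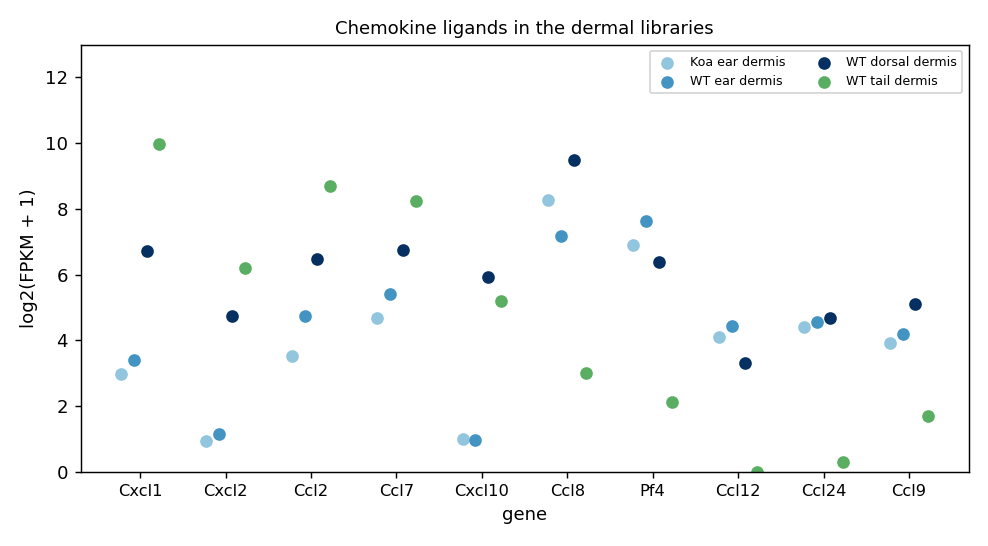
Level of 10 ligands in the 4 dermal libraries, as log2(FPKM + 1), 1 point per library. In Cxcl1, Cxcl2, Ccl2 and Ccl7 the tail point is highest, up to 1009 FPKM, and in Ccl8, Pf4, Ccl12, Ccl24 and Ccl9 it is lowest.

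Receptors of these ligands were followed from lists. Of 9 CC receptors and 8 CXC, CX3C and XC receptors, 6 and 6 reached 1 FPKM in Koa or WT ear dermis and 1 and 3 in epidermis. Among these, 0 were past the rule between Koa and WT. In dorsal against ear dermis, 3 of 8 kept CC receptors were higher (Ccr3, Ccr4 and Ccr7) and 4 of 7 of the others (Cxcr2, Cxcr4, Cxcr5 and Xcr1), against 11.3% of all genes. In epidermis 0 of 1 and 4 of 4 were higher (Cxcr2, Cxcr4, Cx3cr1 and Xcr1), against 11.0%. Ccr3, Ccr4, Ccr7 and Cxcr5 in dermis and Cx3cr1 and Xcr1 in epidermis were under 1 FPKM in ear. They were kept through back alone, and the counts rest in part on them. In tail against ear dermis 0 were higher and 3 of 6 and 3 of 6 were lower (Ccr1, Ccr2, Ccr6, Cx3cr1, Cxcr3 and Cxcr6), against 26.5% lower. Of these, Ccr1, Ccr6, Cx3cr1 and Cxcr3 were under 1 FPKM in tail and were kept through ear alone. In dorsal dermis Ccr2 was the 1 receptor lower, at 9.72 against 29.2 FPKM. Ccr7 stood at 22 FPKM in dorsal dermis against 0.574 FPKM in ear dermis. Cxcr4, the receptor of Cxcl12, stood at 103 against 14.8 FPKM, while Cxcl12 itself differed little. Ccr10, the receptor of Ccl27a, stayed between 0.195 and 0.711 FPKM in all 7 libraries. Among the atypical receptors, which take up chemokines without leukocyte movement, Ccrl1 stood at 57.4 FPKM in Koa ear epidermis against 27.8 FPKM in WT, past the rule.

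Cytokines that induce chemokines were followed from a list of 12. In dorsal against ear dermis 6 of 9 kept genes were higher, against 11.3% of all genes. Among them were Il6 at 22.9 against 1.12 FPKM and Ifng at 3.20 against 0.0822 FPKM. Ifng, Il1a and Il4 were under 1 FPKM in ear and were kept through back alone. In dorsal against ear epidermis 5 of 6 were higher, against 11.0% of all genes, and Il1a, Il1b, Il6 and Tnf were kept through back alone. In tail against ear dermis 4 of 7 were higher, against 6.13%, with Il6 at 107 FPKM in tail. There Il13 and Il17a were kept through tail alone. In Koa against WT ear dermis 1.36% of all genes were higher. There Il33 was the 1 gene of 5 past the rule, at 12.3 against 4.45 FPKM. Of 10 interferon gamma response genes, 5 were higher in dorsal dermis, against 11.3% of all genes, with Irf1 at 133 against 22 FPKM. Gbp5, among these 5, was kept through back alone. In Koa ear dermis 1 of the 10 was higher, Iigp1 at 4.24 against 1.5 FPKM.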

How the data were processed

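The authors deposited 1 table of FPKM values for 7 libraries. The submitters' processing notes name the aligner TopHat2 (2.0.13), the quantifier Cufflinks (2.2.1) and 2 builds, GRCm38 and mm9, whose roles are not given in the sources used here. All 7 value columns were matched to samples by title. The pseudocount was 1 FPKM, the filter 1 FPKM in 1 of the 2 libraries compared and the size rule 1 on the log2(FPKM + 1) scale, in 8 comparisons. Short RNAs and the collagen genes Col1a1, Col1a2 and Col3a1, which are listed at 0 in dermal libraries, were left out of the background. Depth was recovered from whole-fragment steps in low FPKM values, of which 76.4% to 78.4% came within 0.1 of whole fragments in 6 libraries. The method returned 6 of 6 depths within 2% on simulated data, a count that left out the 2-decimal form of the tail column. In tail 51.6% of values came within 0.1 of whole fragments, so its depth is less certain. Intervals are exact binomial 95% intervals on the fragments so recovered. Ligands at 10 FPKM or more in any library, or past the rule in a Koa comparison, were given in full, and others by range. Ccl1, Ccl4, Cxcl5, Cxcl9, Cxcl11 and Cx3cl1 and the genes of other lists were named after their values were seen. 1 gene of the receptor list is not reported here. The ligands and lists were chosen with earlier results of these data known. Positions and promoters come from RefSeq on GRCm38, and all 41 symbols matched. Alternatives were pseudocounts of 0.1 and 5, no filter, a filter of 5 FPKM and median ratio scaling. Python 3.11.15, pandas 2.3.3, numpy 2.4.6, scipy 1.17.1 and matplotlib 3.10.9 were used.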

Additional observations from a re-analysis of the deposited data

How the results depend on the processing

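With a pseudocount of 5 in place of 1, the ligands past the size rule numbered 2 between Koa and WT ear dermis, 13 between dorsal and ear dermis and 8 between dorsal and ear epidermis, since a larger pseudocount shrinks differences of low genes. With a pseudocount of 0.1 they numbered 6 between Koa and WT ear epidermis. No called difference changed sign under the alternatives tried. No paired analysis was possible because each group has 1 library, and for the same reason no replicate could be left out. Totals of ligands past the rule, both directions together, stayed within 1.5 times under the other alternatives. By direction they moved more where few ligands were counted: the lower ligands between WT ear dermis and epidermis went from 2 to 1 with a pseudocount of 5 and with median ratio scaling. Levels of a few fragments are limited by depth.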

Other observations

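Low ligand levels showed single fragments. Of 43 values of 20 ligands that come to few fragments in the 6 libraries with a recovered depth, 34 lay within 0.1 of a whole number of fragments. Ccl8 in WT ear epidermis, at 0.0806 FPKM, comes to 0.997 fragments, and Pf4 in Koa ear epidermis, at 0.0735 FPKM, to 0.994 fragments.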
